A study of Mus musculus with 18 samples.

Results

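Heat shock genes encode molecular chaperones, and cold-inducible RNA-binding genes encode proteins that rise when cells are cooled. A set of 9 such genes was followed through the day in mouse skin, 7 heat shock genes (Hspa1a, Hspa1b, Hspa8, Hsp90aa1, Hsph1, Dnajb1 and Hspb1) and 2 cold-inducible genes (Cirbp and Rbm3). They were found by symbol, and 9 of 9 were present in the deposited matrices and passed the low-count filter, among 12432 genes tested in fibroblasts and 10141 in immune cells. The question was whether the heat genes and the cold genes run in opposite phase over the light-dark cycle, and whether they do so in fibroblasts as in immune cells.

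The samples were 18 single-cell RNA libraries of dorsal dermis, each labelled as a separate sample from wild-type (WT) male C57BL/6J mice kept on a 12:12 light-dark cycle. There were 3 libraries at each of 6 zeitgeber times (ZT, hours after lights on): ZT2, ZT6, ZT10, ZT14, ZT18 and ZT22, with lights off at ZT12. Every group shared the same handling, so there was no untreated control: after CO2 the skin was shaved and treated with a depilatory cream, digested with collagenase at 37 °C for 1.5 h, filtered, and live cells were sorted by viability dye. That warm digestion applied to all 18 libraries, so levels of heat genes here are levels after it.

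As background, a chaperone holds or refolds proteins that have lost their shape. On heating, heat shock factor 1 is released from chaperones, forms trimers and binds heat shock elements in the promoters of these genes. Cooling by a few degrees does the reverse to Cirbp and Rbm3, whose products bind RNA and stabilise transcripts, and the daily swing of body temperature is known to drive both sets in opposite directions in several tissues, which in a night-active mouse means heat genes by night and cold genes by day. Skin lies at the surface, and its temperature need not follow that of the body core.

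The members have the following roles and places in the mm10 (GRCm38) genome. Hspa1a (ENSMUSG00000091971, chr17:34969190-34972156, minus strand) and Hspa1b (ENSMUSG00000090877, chr17:34956436-34959238, minus strand) are neighbouring copies of the stress-induced Hsp70 chaperone. Hspa8 (ENSMUSG00000015656, chr9:40800984-40810087, plus strand) is the constitutive Hsp70, and Dnajb1 (ENSMUSG00000005483, chr8:83608193-83612653, plus strand) is an Hsp40 co-chaperone that hands clients to Hsp70. Hsph1 (ENSMUSG00000029657, chr5:149614287-149636376, minus strand) is an Hsp110, a nucleotide exchange factor of Hsp70. Hsp90aa1 (ENSMUSG00000021270, chr12:110690605-110702728, minus strand) is the inducible cytosolic Hsp90, and Hspb1 (ENSMUSG00000004951, chr5:135887919-135889563, plus strand) is a small heat shock protein that holds unfolded clients without ATP. Cirbp (ENSMUSG00000045193, chr10:80165985-80172786, plus strand) and Rbm3 (ENSMUSG00000031167, chrX:8138975-8145880, minus strand) are the cold-inducible RNA-binding proteins. Hspa1a is overlapped on the opposite strand by Gm20481, Rbm3 is overlapped by its antisense gene Rbm3os, and Hspa8 holds the small nucleolar RNAs Snord14c, Snord14d and Snord14e on its own strand. Hspa1a and Hspa1b share 86.6% of aligned bases over their longest transcripts but 54.8% over the last 300 bases, the end that a 3′ library reads. How the counting divided reads between them was not tested, so the split between these 2 copies is uncertain.

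The promoters of 3 members are shown because they carry the letters that heat and cold responses are known by. They are the 250 bases before the start site in RefSeq (GRCm38.p6), written 5′ to 3′ in the direction of the gene, with the searched element in capitals: chr17:34972157-34972406 (minus strand) for Hspa1a, chr5:135887669-135887918 (plus strand) for Hspb1 and chr10:80167589-80167838 (plus strand) for Cirbp.
Hspa1a: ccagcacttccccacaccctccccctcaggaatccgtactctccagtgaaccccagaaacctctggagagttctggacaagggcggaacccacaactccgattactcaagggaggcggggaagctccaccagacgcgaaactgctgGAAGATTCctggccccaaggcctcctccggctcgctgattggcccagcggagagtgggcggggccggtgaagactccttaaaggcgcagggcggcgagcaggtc
Hspb1: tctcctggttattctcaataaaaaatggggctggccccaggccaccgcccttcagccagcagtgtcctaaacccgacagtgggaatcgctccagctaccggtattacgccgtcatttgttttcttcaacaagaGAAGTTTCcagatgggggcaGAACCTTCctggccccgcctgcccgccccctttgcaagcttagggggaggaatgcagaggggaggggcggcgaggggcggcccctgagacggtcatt
Cirbp: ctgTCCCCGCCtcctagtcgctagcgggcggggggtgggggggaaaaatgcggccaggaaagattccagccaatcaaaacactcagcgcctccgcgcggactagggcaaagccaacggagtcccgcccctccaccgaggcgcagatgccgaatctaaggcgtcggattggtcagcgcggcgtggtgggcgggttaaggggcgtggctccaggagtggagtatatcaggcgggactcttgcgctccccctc
The element in Hspa1a and Hspb1 is a pair of inverted heat shock units, GAANNTTC, and that in Cirbp is TCCCCGCC, the letters described as a mild cold response element. Entries existed for 6 of the 9 genes. A longer heat shock element of 3 units was also searched for. It lay in none of these genes' windows, and 0.466% of 32851 promoter windows held it. GAANNTTC lay 104 to 97 bases before the start in Hspa1a and in Hspa1b, and at 117 to 110 and 97 to 90 bases before it in Hspb1. The same units in the other order, TTCNNGAA, lay in both entries of Hsph1, and no pair of units lay in the windows of Dnajb1 or Cirbp. On both strands, 6.69% of 32851 promoter windows held GAANNTTC, 7.17% held TTCNNGAA and 12.8% held either. TCCCCGCC lay 247 to 240 bases before 1 of the 2 Cirbp starts, and 4.64% of all windows held it, including Hspa1a and Hspa1b on their minus strand at 137 to 130 bases. A match is a run of letters, not a measured binding site. Both the Hspa1a and the Hspb1 window hold the pair of units. In a single fibroblast cluster, cluster 9, the rhythm of Hspb1 passed the test and that of Hspa1a did not, and the difference between them was not tested.

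Of 23990 deposited barcodes, 16877 cells were kept, of which 12035 (71.3%) were fibroblast-like and 3323 (19.7%) immune-like by marker genes. The smallest library, ZT18 replicate 1, held 105 fibroblast-like and 31 immune-like cells, against medians over libraries of 531.5 and 176. Each library gave 1 sum of unique molecular identifiers (UMIs) for either cell type, of 2862838 to 33972360 UMIs in fibroblasts and 481549 to 5775203 in immune cells, and levels are given per 10000 of these UMIs. The 6 fibroblast markers summed to 633 to 1098 per 10000 in the fibroblast sums and 2.68 to 56.4 in the immune sums, and the 13 immune markers to 192 to 305 in the immune sums and 0.0559 to 0.386 in the fibroblast sums. Red blood cell markers reached 119 per 10000 in the immune sums. Of the kept cells' barcode sequences, 36 occurred in more than 1 library. As a check of the time labels, the clock genes peaked in the fibroblast sums, by edgeR's cosine, at 22.6 h (Arntl), 8.11 h (Nr1d1), 9.88 h (Dbp) and 14.4 h (Per2).

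As a share of UMIs, most of these transcripts were higher in immune cells than in fibroblasts. Immune-like cells had a median of 11138 UMIs against 22299 in fibroblast-like cells, so these levels are not molecules per cell. Hspa8 was higher in the immune sum of 18 of 18 libraries (fibroblasts 12.3 ± 2.22, immune cells 23.2 ± 5.60 UMIs per 10000, SD, n = 18), and so was Rbm3 (2.57 ± 0.476 and 4.55 ± 0.973). Hspa1a stood at 10.4 ± 2.88 in fibroblasts and 19.4 ± 6.17 in immune cells and was higher there in 17 of 18 libraries, as was Hspa1b. Hspb1 went the other way: it stood at 3.33 ± 1.44 in fibroblasts and 1.27 ± 1.04 in immune cells and was higher in fibroblasts in 17 of 18 libraries, with a fold of 3.17 fitted by edgeR. By edgeR's quasi-likelihood test with the library as a block and Benjamini-Hochberg adjustment, 6 members were higher in immune cells and 1 in fibroblasts, where 40.5% and 43% of 11488 genes were called, so a call by itself says little. The differences in log2 were 0.85 (SE 0.14, adjusted p = 4.56e-06) for Hspa1a, 0.89 (SE 0.08, adjusted p = 5.79e-10) for Hspa8, 0.80 (SE 0.05, adjusted p = 1.22e-12) for Rbm3 and -1.66 (SE 0.26, adjusted p = 2.56e-06) for Hspb1. Dnajb1 (log2 difference -0.06, SE 0.19) and Cirbp (-0.08, SE 0.06) did not pass the test. Fibroblast RNA in the immune sums, at the marker levels given above, was not tested as a part of these values.

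Muscle-like cells came from the same dissociated pieces and stood far lower for the inducible genes. In the 12 libraries with at least 20 muscle-like cells, the median level of Hspa1a was 0.142 per 10000 (0.0397 to 0.808) and that of Dnajb1 was 0.0382, against 10.3 and 1.80 in fibroblasts. Hspb1, by contrast, had a median of 8.70 in muscle-like cells, above its 3.01 in fibroblasts. Hspa8 (median 7.32), Rbm3 (1.01) and Cirbp (0.258) in muscle-like cells were also below their fibroblast medians of 12.7, 2.60 and 0.431. Muscle-like cells had a median of 6598 UMIs against 22299 in fibroblasts, and no test was made on them. Over the 18 libraries their median mitochondrial share was 0% to 0.0427%, against 1.90% to 2.59% in fibroblasts.

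**Figure D1:**
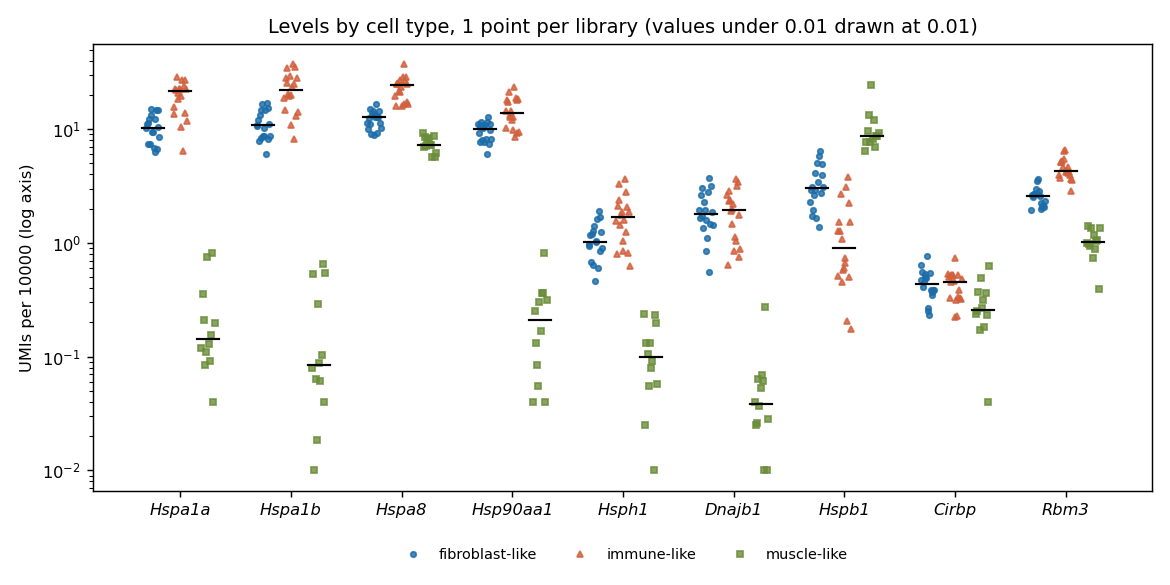
UMIs per 10000 (log axis) of the 9 genes, 1 point per library, in fibroblast-like (blue circles), immune-like (orange triangles) and muscle-like cells (green squares, 12 libraries), with the median as a black line. The immune median lies above the fibroblast median for Hspa8 and Rbm3, Hspb1 runs the other way, and every gene but Hspb1 has its lowest median in muscle-like cells.

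Levels also differed between clusters of one class. The clusters were made without the 9 members and 12 clock genes. Among fibroblast clusters, the median Hspa1a level over libraries ran from 4.74 per 10000 in cluster 9 (led by Sult1e1 and Cxcl13) and 5.37 in cluster 4 (Sbsn and Bmp3) to 22.4 in cluster 7, led by the cytokine genes Cxcl10 and Cxcl1. Hspa8 ran from 7.27 in cluster 4 to 26.6 in cluster 0 (Cthrc1 and Tnmd). Among immune clusters, Hspa1a was 8.39 in cluster 13 (Gzma and Ccl5, 5 libraries) and 47.4 in cluster 2 (8 libraries), led by the stress genes Hmox1 and Gdf15. The cluster medians cover only libraries with 20 or more cells of a cluster, so the libraries compared differ. There were 18 for clusters 4 and 9, 14 for cluster 7 and 13 for cluster 0. Rbm3 varied less among fibroblast clusters, from 2.16 to 2.87, and Cirbp stood at 0.203 in cluster 0 and at 0.401 to 0.481 in the others. Over the 18 libraries the share of fibroblasts that lay in a cluster had a Pearson r with the Hspa1a level of the fibroblast sum of -0.60 for cluster 4 (share 10.4% to 29.7%), 0.58 for cluster 6 (1.46% to 27.8%, led by Edn1) and 0.55 for cluster 7 (2.87% to 18.4%). A sum over all fibroblasts therefore mixes the level in each kind of cell with how many cells of each kind a library held. The library ZT14 replicate 1 stood apart in this, with 40.9% of its fibroblasts in cluster 5 (median 10.1%) and 34.1% of its immune cells in cluster 17, led by the neutrophil gene S100a9 (median 1.53%). Without it, edgeR called 1 member as rhythmic in fibroblasts and 0 in immune cells, as with it, 3 in cluster 4 and 6 in cluster 9.

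Rbm3 had the clearest daily course of the 9. In fibroblasts it was highest at ZT10, with 2.99, 3.49 and 3.62 UMIs per 10000 in the 3 libraries, after 1.96, 2.61 and 2.54 at ZT2 and 2.67, 2.69 and 2.69 at ZT6. It then stood at 2.72, 2.84 and 2.59 at ZT14, at 1.97, 2.24 and 2.06 at ZT18 and at 2.15, 2.06 and 2.35 at ZT22. All 3 ZT10 libraries lay above all 15 others, late in the light phase. The share of all genes with such a separation is not given, here or below, so how unusual it is remains unknown. A 24 h cosine fitted to Rbm3 peaked at 9.49 h (SE 0.58) with an amplitude of 21.6% of the mean (SE 3.8). By edgeR's test of the cosine and sine terms, Rbm3 was the 1 member called in fibroblasts (adjusted p = 0.000524), where 13.2% of 12432 genes were called.

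In immune cells Rbm3 took the same course at a higher level. It was 5.50, 6.43 and 6.51 at ZT10, after 3.93, 3.72 and 5.11 at ZT2 and 5.18, 5.27 and 4.67 at ZT6. It stood at 4.2, 4.32 and 4.66 at ZT14, at 4.11, 4.17 and 3.97 at ZT18 and at 2.83, 3.67 and 3.57 at ZT22. The ZT10 libraries lay above all others and the ZT22 libraries below all others, and the cosine peaked at 9.21 h (SE 0.64) with an amplitude of 25% of the mean (SE 4.0). Even so, edgeR called 0 members in immune cells, where it called 0.0789% of 10141 genes. Rbm3 had an adjusted p of 0.0987 by edgeR, and it and Cirbp were the 2 members with an unadjusted p under 0.05. DESeq2 called Rbm3 (adjusted p = 0.000272), and edgeR did so without ZT2 replicate 3 (adjusted p = 0.0291), with 0.0291 to 0.290 over the 18 libraries left out in turn. The 0.0789% of genes is edgeR's share, and that of DESeq2 in these sums is not given.

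Cirbp showed a trough rather than a smooth wave. In fibroblasts it fell to 0.270, 0.252 and 0.233 UMIs per 10000 at ZT14, just after lights off, from 0.5, 0.487 and 0.774 at ZT10. The other libraries held 0.470, 0.640 and 0.554 at ZT2, 0.407, 0.455 and 0.532 at ZT6, 0.545, 0.388 and 0.372 at ZT18, and 0.349, 0.388 and 0.388 at ZT22. All 3 ZT14 libraries thus lay below all 15 others, a separation whose share over all genes is not given. With zeitgeber time as a factor in place of the cosine, edgeR called Cirbp in fibroblasts (adjusted p = 0.00129). The share of all genes called by that factor test is not given either, and the 13.2% belongs to the cosine test. The cosine alone did not (adjusted p = 0.0929, peak at 4.97 h, SE 1.91), except without ZT10 replicate 3 (adjusted p = 0.0429) or ZT18 replicate 1 (adjusted p = 0.0360).

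The same trough stood in immune cells, where Cirbp was 0.221, 0.316 and 0.225 at ZT14. The other 15 immune libraries held 0.322 or more, with 0.519, 0.458 and 0.741 at ZT10. With time as a factor the adjusted p was 0.338 there, and with the cosine it was 0.6. The summed level of 12 immediate early genes, which tissue dissociation is known to induce, was also lowest in fibroblasts at ZT14 (87.6 to 101 per 10000, against 98.4 to 169 at the other times), and its part in the Cirbp values was not tested.

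**Figure D2:**
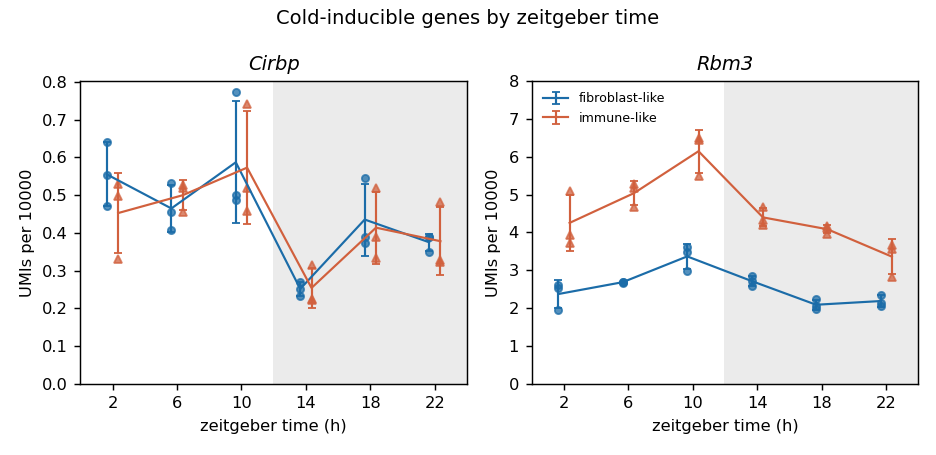
UMIs per 10000 of Cirbp (left) and Rbm3 (right) against zeitgeber time, 1 point per library with the mean and SD of 3 as a line and bars, in fibroblast-like (blue) and immune-like cells (orange); the night is grey. Cirbp is lowest at ZT14 and Rbm3 highest at ZT10 in both.

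The 7 heat genes showed no such order in the sums over all fibroblasts. Hspa1a held 10.2, 11.1 and 11.3 UMIs per 10000 at ZT2, 7.48, 12.2 and 7.42 at ZT6 and 13.4, 15 and 9.51 at ZT10. At night it held 9.38, 6.77 and 12.3 at ZT14, 6.32, 14.7 and 6.75 at ZT18, and 14.8, 10.4 and 8.59 at ZT22. The ZT18 libraries alone spanned 6.32 to 14.7, nearly the whole range of the 18 libraries. Hspb1 came closest to a night peak, with 5.02, 3.45 and 5.79 at ZT14 and 4.91, 3.93 and 3.11 at ZT22 against 1.71, 1.95 and 2.63 at ZT6. At ZT18 Hspb1 held 1.38, 6.40 and 2.73.

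By edgeR, 0 of the 7 heat genes were called in fibroblasts and 1, Hspb1, had an unadjusted p under 0.05 (fitted peak 17 h, SE 1.47). By that edgeR test the adjusted p of Hspb1 was 0.164. Without ZT18 replicate 1, the library with the fewest cells, the adjusted p of Hspb1 was 0.0206. The other 6 had adjusted p from 0.616 to 0.941. In immune cells 0 of the 7 were called and 0 had an unadjusted p under 0.05, and DESeq2 called 0 of them in either class. Their libraries of 1 time point varied more than most genes: the SD of log2 within a zeitgeber time ran from 0.29 (Hspa8) to 0.78 (Dnajb1) in fibroblasts, higher than in 81.9% to 99.2% of tested genes, whose median was 0.18. For Rbm3 it was 0.13. Between zeitgeber times lay 83.0% of the variance of Rbm3 and 80.7% of that of Cirbp, but 8.28% (Dnajb1) to 38.5% (Hspb1) for heat genes, against a median of 41.3% over all tested genes.

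The rhythms did not pass a test of difference between the cell types for any of the 9. By edgeR's interaction of cell type with the cosine and sine terms, 0 members were called, where 0.279% of 11488 genes were called. No member had an unadjusted p under 0.05, and DESeq2 called 0 as well. The p-values here and elsewhere measure the spread between libraries of single mice.

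**Figure D3:**
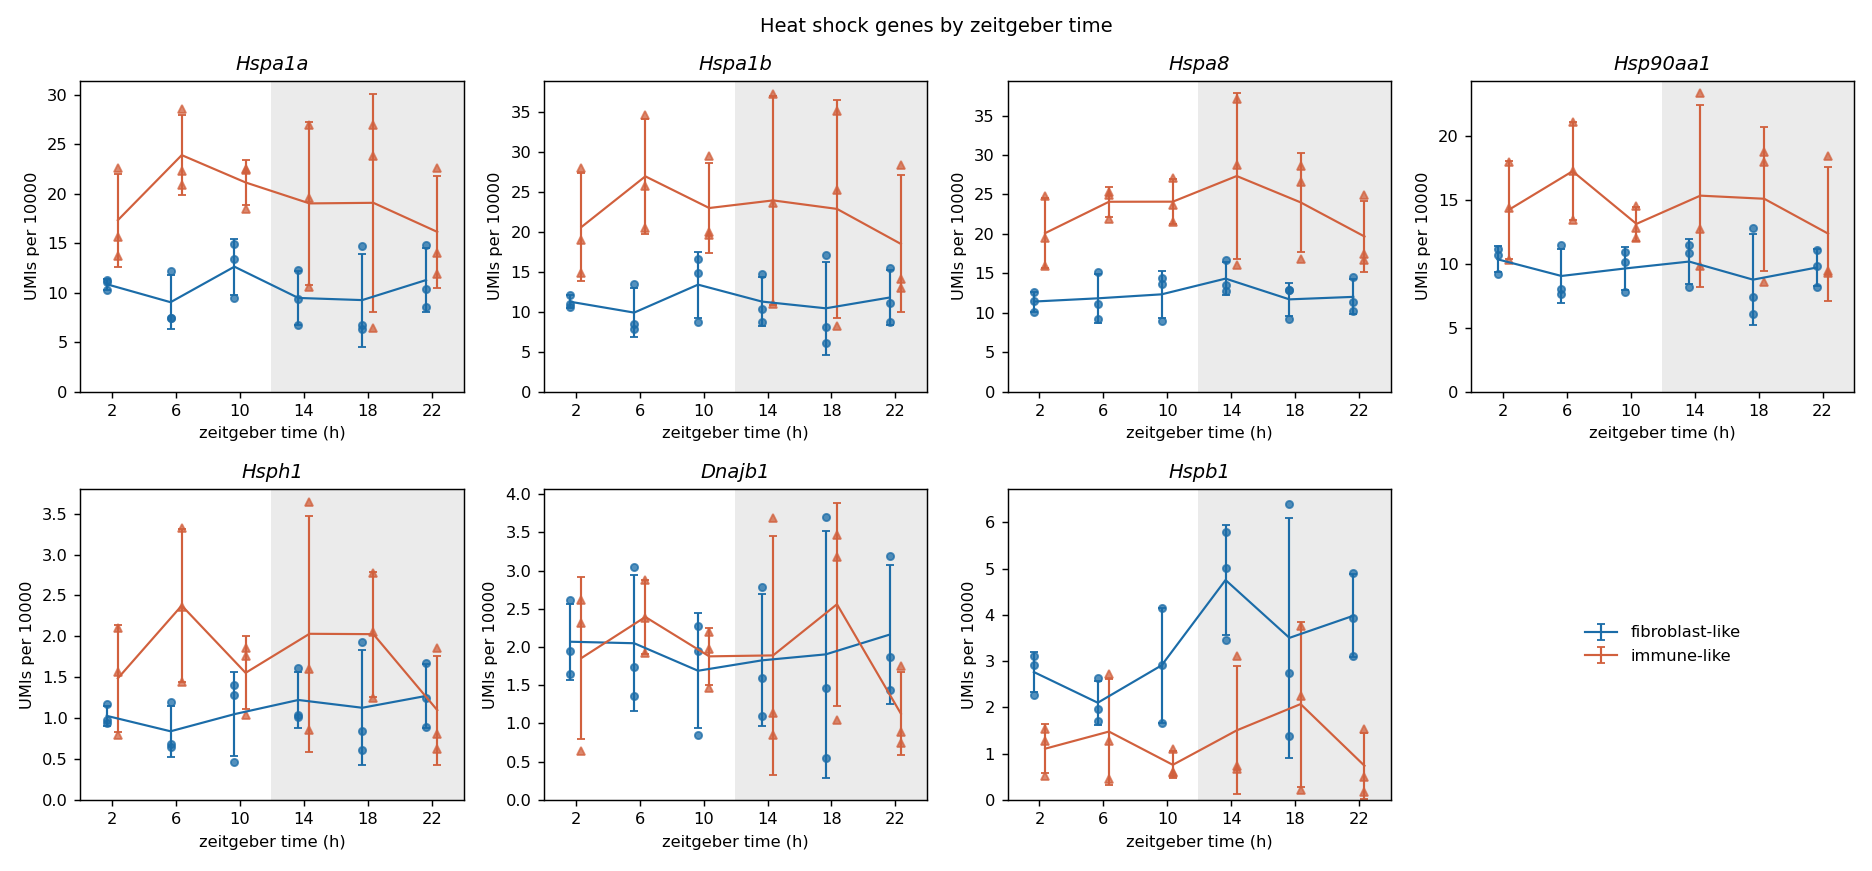
UMIs per 10000 of the 7 heat genes against zeitgeber time in fibroblast-like (blue) and immune-like cells (orange), 1 point per library with the mean and SD of 3; the night is grey. Libraries of 1 time point are spread widely, in fibroblasts most of all at ZT18 except for Hspa8, and Hspb1 in fibroblasts has its lowest mean at ZT6.

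Single clusters of fibroblasts gave another picture. Clusters 4 and 9 were the 2 fibroblast clusters with 20 or more cells in every library (2109 and 2156 cells, all 6 fibroblast markers detected in each), and they were examined after the sums had been seen. In cluster 4, Hspa8 rose at ZT14 to 10.8, 10.5 and 12.8 UMIs per 10000, above all 15 other libraries, from 5.68, 7.51 and 6.16 at ZT10. It stood at 6.74, 8.56 and 9.91 at ZT18, at 7.50, 7.61 and 6.61 at ZT22, at 6.33, 7.15 and 7.40 at ZT2 and at 6.41, 5.96 and 5.96 at ZT6. In cluster 9, Hspa8 was 8.29, 11.6 and 12.8 at ZT14 and 8.08, 8.02 and 10.2 at ZT18, against 6.59, 6.35 and 5.95 at ZT6. The ZT14 libraries thus lay above every library of ZT2, ZT6 and ZT10 in both clusters, which held 7.73 or less.

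Hsph1, the Hsp110, had the largest relative swing. In cluster 9 it was 0.200, 0.187 and 0.239 at ZT6, 0.384, 0.296 and 0.166 at ZT10 and 0.263, 0.332 and 0.238 at ZT2. By night it was 0.460, 0.704 and 0.892 at ZT14, 0.350, 0.558 and 0.532 at ZT18, and 0.734, 0.599 and 0.350 at ZT22. The 3 ZT14 libraries lay above all 9 libraries of the light phase, and the mean at ZT14 was 3.28 times that at ZT6. In cluster 4 the same ratio was 3.32, with 0.443, 0.735 and 0.911 at ZT14 against 0.201, 0.233 and 0.195 at ZT6.

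Hspb1 in cluster 9 followed the same course. It was 1.62, 2.49 and 3.12 at ZT14, 1.65, 2.03 and 1.73 at ZT18 and 2.16, 2.41 and 1.49 at ZT22. By day it was 1.49, 1.18 and 1.2 at ZT2, 0.805, 0.937 and 0.791 at ZT6 and 1.16, 1.60 and 0.814 at ZT10. In cluster 4 Hspb1 was more scattered, with 0.80, 3.71 and 1.38 at ZT18, and did not pass the test (adjusted p = 0.229). Hspa1a, Hspa1b and Hsp90aa1 passed in neither cluster (adjusted p from 0.658 to 0.942), and their ZT means differed by up to 1.64 times.

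By the same edgeR test, 3 members were called in cluster 4, where 7.27% of 9851 genes were: Hspa8 (adjusted p = 0.00732, peak 15.8 h, SE 1.00), Hsph1 (adjusted p = 0.00211, peak 16.9 h, SE 1.2) and Rbm3 (adjusted p = 0.000600, peak 8.90 h, SE 0.74). In cluster 9, where 6.77% of 9475 genes were called, 5 members were: Hspa8 (adjusted p = 0.00225, peak 15.9 h, SE 0.94), Hsph1 (adjusted p = 0.000242, peak 17.3 h, SE 1.15), Hspb1 (adjusted p = 0.000762, peak 17.5 h, SE 1.13), Dnajb1 (adjusted p = 0.0236, peak 18.7 h, SE 1.41) and Cirbp (adjusted p = 0.0436, peak 5.51 h, SE 1.71). Every heat gene called thus peaked in the night and every cold gene in the day. The calls of Hspa8 and Hsph1 in both clusters, Rbm3 in cluster 4 and Hspb1 in cluster 9 held with the collection day as a block, with DESeq2 and with each library left out. Those of Cirbp and Dnajb1 in cluster 9 did not hold throughout: Cirbp had an adjusted p of 0.0722 with the day as a block and was called in 7 of 18 fits without 1 library, and Dnajb1 was lost without ZT6 replicate 1 (adjusted p = 0.0738), ZT6 replicate 3 (0.0567) or ZT18 replicate 2 (0.0712). Rbm3 in cluster 9 had an adjusted p of 0.0777, and 0.0271 without ZT14 replicate 1.

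These clusters share their mice with each other and their cells with the fibroblast sums, so they do not repeat the experiment. Whether their rhythms differ from those of the other fibroblasts was not tested. Cirbp again lay below all other libraries at ZT14, at 0.207, 0.248 and 0.227 in cluster 4 (0.318 or more elsewhere) and at 0.276, 0.219 and 0.223 in cluster 9 (0.368 or more elsewhere). With time as a factor its adjusted p by edgeR was 0.000319 in cluster 4 and 2.94e-06 in cluster 9. The shares of 7.27% and 6.77% of all genes belong to the cosine test, and those of the factor test are not given. Among immune cells only cluster 3, led by the macrophage genes Fcna and Cd209f, had 20 or more cells in every library. There edgeR called Rbm3 alone (adjusted p = 0.0174, peak 9.45 h, SE 0.66), where 0.256% of 8198 genes were called. It called 0 heat genes, of which Hspa8 (fitted peak 13.3 h) was the 1 with an unadjusted p under 0.05, and DESeq2 called 0 of them as well. The Rbm3 call there was lost without ZT10 replicate 2 (adjusted p = 0.0746), ZT22 replicate 1 (0.0511) or ZT22 replicate 2 (0.0663).

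**Figure D4:**
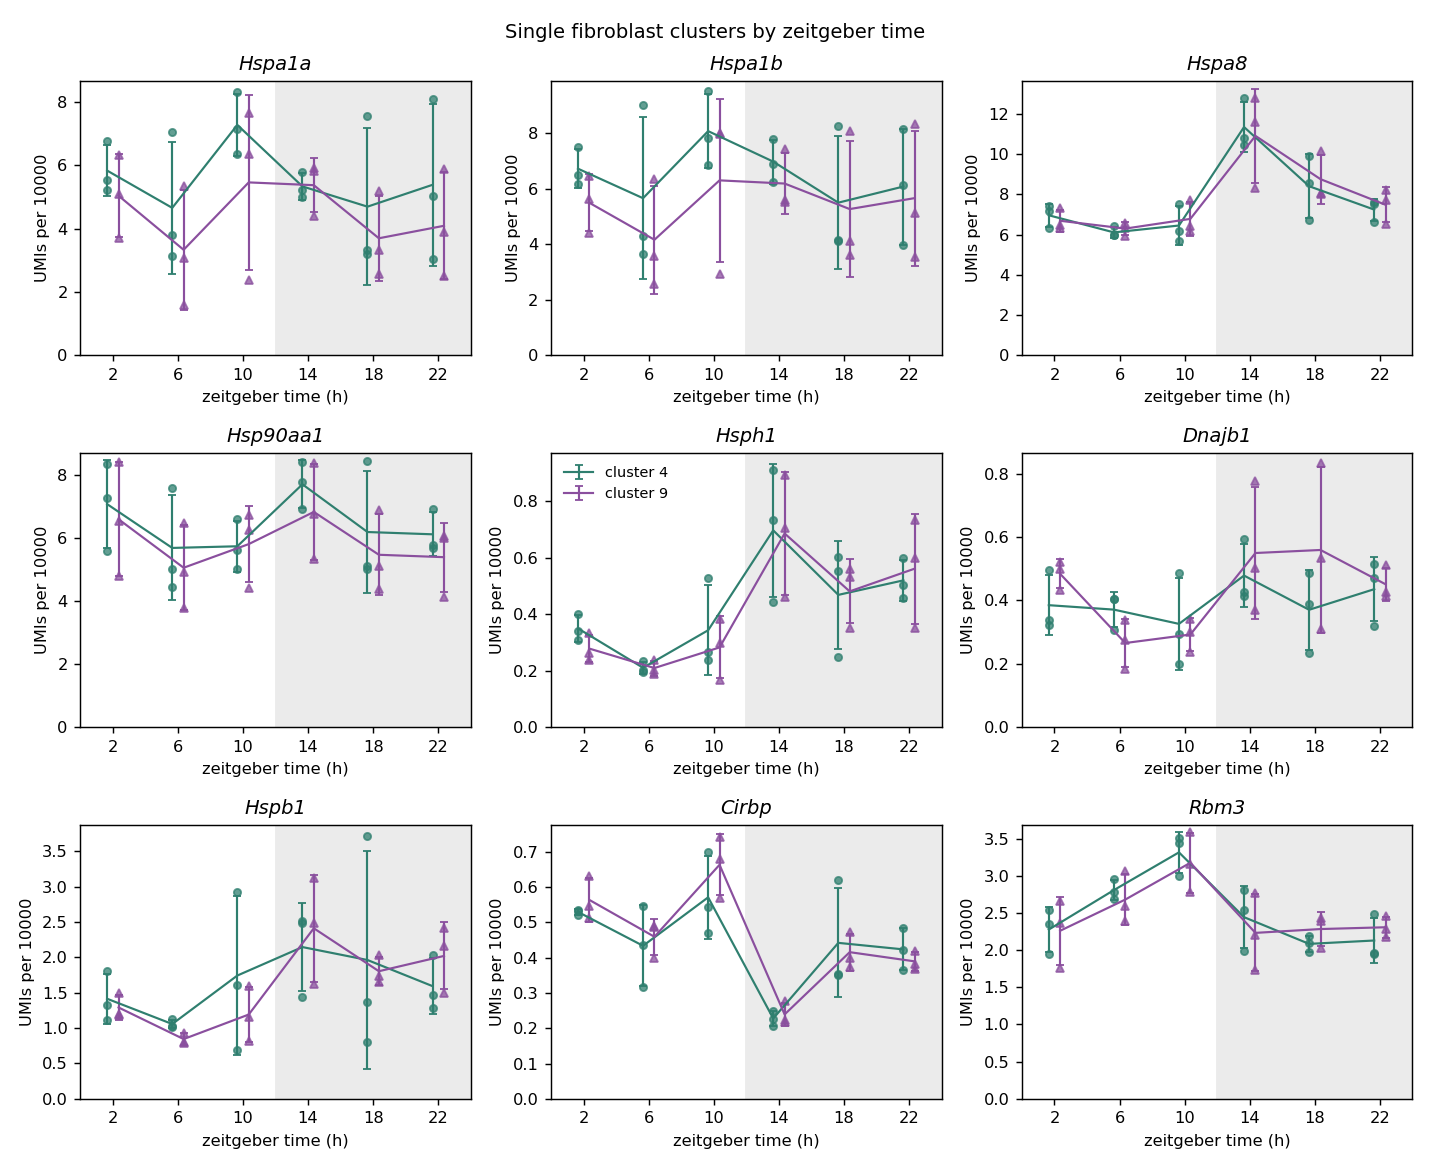
UMIs per 10000 of the 9 genes against zeitgeber time in fibroblast cluster 4 (green circles) and cluster 9 (purple triangles), 1 point per library with the mean and SD of 3; the night is grey. Hspa8, Hsph1, Hspb1, Dnajb1 and Hsp90aa1 have their highest means by night in both clusters, and Hspa1a and Hspa1b at ZT10. Cirbp is lowest at ZT14 and the Rbm3 mean highest at ZT10. Hsp90aa1, Hspa1a and Hspa1b were called as rhythmic in neither cluster, and Hspb1 and Dnajb1 in cluster 9 only.

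Opposite phase on a 24 h cycle means peaks 12 h apart, the largest gap possible. In the sums over all fibroblasts, the median gap over the 14 pairs of a heat and a cold gene was 6.01 h, and in immune cells it was 3.06 h. It moved by over 1.5 times in fibroblasts without ZT10 replicate 2 (9.18 h), ZT18 replicate 1 (9.37 h), ZT18 replicate 2 (3.94 h) or ZT18 replicate 3 (9.26 h), and in immune cells without ZT6 replicate 2 (4.88 h), ZT18 replicate 1 (5.05 h) or ZT18 replicate 2 (2.00 h). Most heat genes had no usable peak there: the 95% interval held both 0 and 12 h for 8 of 14 pairs in each class, and 12 h without 0 for 4 pairs in fibroblasts and 1 in immune cells. The pair nearest to opposite phase was Hspb1 and Cirbp in fibroblasts, 12.0 h apart (SE 1.60, 95% interval 8.61 to 15.4 h, where values past 12 h run on into the other side of the cycle). Both are peaks of fitted cosines that did not pass the test, and the highest means lay at ZT10 (Cirbp) and ZT14 (Hspb1).

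In the single fibroblast clusters the gaps to Cirbp were long for the heat genes called as rhythmic. Those of Hspa1a (5.19 h in cluster 4, 6.09 h in cluster 9) and Hspa1b (6.26 and 9.45 h) had intervals that held both 0 and 12 h. In immune cluster 3, where 0 heat genes were called, the median gap to Cirbp over the 7 was 5.59 h. The interval held both 0 and 12 h for 4 of 7 there. In cluster 4 the peak of Hspa8 lay 11.9 h from that of Cirbp (SE 1.58, interval 8.61 to 15.3 h) and that of Hsph1 10.9 h (SE 1.95, 6.83 to 15.1 h). In cluster 9 the gaps to Cirbp were 10.4 h for Hspa8 (SE 1.19, 7.86 to 12.9 h), 11.8 h for Hsph1 (SE 1.55, 8.53 to 15.1 h), 12.0 h for Hspb1 (SE 1.41, 9.01 to 15 h) and 10.8 h for Dnajb1 (SE 1.80, 6.97 to 14.6 h). The interval held 12 h and not 0 for 5 of 7 heat genes in cluster 4 and for 4 of 7 in cluster 9. In cluster 4 those of Hsp90aa1 (0.891 to 20.5 h) and Dnajb1 (0.541 to 18.2 h) covered almost every possible gap. Neither of these genes nor Hspb1 was called as rhythmic in cluster 4, and the Cirbp cosine was not called there either. In both clusters the Cirbp mean was highest at ZT10 (0.571 in cluster 4, 0.663 in cluster 9) and lowest at ZT14. The Hspa8 mean was highest at ZT14 (11.3 and 10.9), the next time sampled.

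The gaps to Rbm3 were shorter for some of these genes, and whether they differ from the gaps to Cirbp was not tested. In cluster 4 Hspa8 peaked 6.93 h (SE 1.06, 4.69 to 9.17 h) and Hsph1 8.04 h (SE 1.46, 4.96 to 11.1 h) after Rbm3, with intervals that exclude both 0 and 12 h. In cluster 9 Hspa8 peaked 7.17 h after it (SE 1.86, 3.24 to 11.1 h), while the intervals of Hsph1 (8.60 h, 4.49 to 12.7 h), Hspb1 (8.79 h, 4.81 to 12.8 h) and Dnajb1 (10.03 h, 5.98 to 14.1 h) held 12 h and not 0. In the sums over all fibroblasts the fitted peak of Rbm3 came 4.52 h after that of Cirbp (SE 1.81, 0.703 to 8.34 h). In immune cells that gap was 3.25 h (SE 2.03), with an interval that held 0. The cosine of Cirbp passed the test in neither class, and the means of both cold genes were highest at ZT10 in both classes.

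Over the 18 libraries the heat genes moved together in the sums over a class. In fibroblasts Hspa1a had r = 0.96 with Hspa1b (Spearman's rho 0.95; p = 1e-05 for either, the smallest that the permutations can give) and r = 0.87 with Hsp90aa1 (permutation p = 1e-05, rho 0.81 with p = 0.00011). Adjusted over all genes, both r values had p = 0.0497 by permutation. Hspa1b and Hsp90aa1 were the 2 of 6 heat genes called as rising with Hspa1a there, where 0.0402% of 12431 genes were, and without the 2 libraries farthest from the median of Hspa1a the r values were 0.95 and 0.81 (adjusted p = 0.124 and 0.572 by permutation). A single gene at the smallest permutation p of 1e-05 could not be called after adjustment over all genes. The lack of a call for Hspa1b without those libraries thus says little. In immune cells 6 of 6 heat genes were called, with r from 0.72 to 0.96, where 1.15% of 10140 genes were. After the mean of each zeitgeber time was subtracted, r between Hspa1a and the others ran from 0.77 to 0.97 in fibroblasts. In immune cells it ran from 0.76 to 0.96, so r was also high among libraries of the same hour. With the means subtracted 0 heat genes were called in either class, where 0% of genes were. In single fibroblast clusters the values spread more widely, and r of Hspa1a was 0.97 with Hspa1b in cluster 4 but -0.0033 with Hspa8, 0.17 with Dnajb1 and 0.21 with Hsph1. In cluster 9 it was 0.95 with Hspa1b and 0.85 with Hsp90aa1, and from 0.23 (Hspa8) to 0.53 (Dnajb1) with the other 4. In immune cluster 3 it ran from 0.61 (Hsph1) to 0.98 (Hspa1b). Among the 12 immediate early genes, r with Hspa1a in fibroblasts had a median of 0.56, and the part of dissociation in this shared movement was not tested.

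Over all tested genes the median r with Cirbp was below 0, at -0.078 in fibroblasts and -0.043 in immune cells. Against that background Cirbp had negative r with 6 of the 7 heat genes in either class. In fibroblasts its r was -0.62 with Hspa8 (p = 0.0057, adjusted p = 0.119, rho -0.58 with p = 0.0123), -0.62 with Hspb1 (p = 0.00593, adjusted p = 0.121, rho -0.61 with p = 0.00891) and -0.50 with Hsph1 (p = 0.0356, adjusted p = 0.231, rho -0.43 with p = 0.0779), by permutation over libraries. These were the 3 heat genes with an unadjusted p under 0.05, and 0 were called, where 0.692% of 12431 genes were called as falling with Cirbp. Without the 2 libraries farthest from the median of Cirbp, the r values were -0.40, -0.45 and -0.21. Leaving out the extremes of Cirbp narrows its range, which by itself weakens r, so the drop does not show what the relation rests on. In immune cells 0 heat genes were called, where 0% of 10140 genes were, and r ran from -0.39 (Hspb1) to 0.01 (Dnajb1). The r of Cirbp with the 12 immediate early genes had a median of 0.52 in fibroblasts and 0.50 in immune cells, and their part in these relations was not tested.

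Within the same hour r with Cirbp was negative for 7 of 7 heat genes in the sums of both classes, but not in immune cluster 3. After the zeitgeber time means were subtracted, r ran from -0.77 (Hspa8) to -0.45 (Hspa1a) in fibroblasts and from -0.64 (Hspb1) to -0.35 (Dnajb1) in immune cells. The median r with Cirbp over all tested genes was then 0.064 in fibroblasts and 0.017 in immune cells. In each class 3 of the 7 had an unadjusted p under 0.05 by the exact permutation within zeitgeber times and 0 were called, where 0% of genes were called in both classes. The smallest p this permutation can give is 2.14e-05. A single gene at that p could not be called after adjustment over all genes, so the lack of calls says little. In fibroblast clusters 4 and 9 the values were also negative for 7 of 7, from -0.59 to -0.39 and from -0.73 to -0.27. By the same permutation the unadjusted p ran from 0.0552 (Dnajb1) to 0.317 (Hspb1) in cluster 4. In cluster 9 it ran from 0.00742 (Hspb1) to 0.363 (Hsph1). The adjusted p was 0.684 or more in cluster 4 and 0.382 or more in cluster 9. In immune cluster 3 r was positive for 6 of 7, up to 0.23 (Hsph1), and negative for Hspb1 (-0.34). The heat genes share libraries and move together, so these 7 values are not 7 separate observations.

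In the single clusters the values were larger for some. In cluster 9 Cirbp had r = -0.81 with Hspa8 (permutation p = 0.00011, adjusted p = 0.0613, rho -0.77 with p = 0.00025), -0.70 with Hspb1 (adjusted p = 0.174) and -0.70 with Hsph1 (adjusted p = 0.174), and 0 heat genes were called, where 0.0633% of 9474 genes were. In cluster 4 r with Hspa8 was -0.77 (permutation p = 0.0003, adjusted p = 0.113, rho -0.60 with p = 0.0101), with 0 heat genes called, where 0.0203% of 9850 genes were. Without the 2 libraries farthest from the median of Cirbp, r with Hspa8 was -0.59 in either cluster, and with each library left out in turn its adjusted p ran from 0.0547 to 0.292 in cluster 4 and from 0.0431 to 0.244 in cluster 9, where Hspa8 was called without ZT10 replicate 2 (adjusted p = 0.0431). In immune cluster 3 r of Cirbp with the heat genes ran from -0.33 to 0.20, with 0 called, where 0% of 8197 genes were.

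The values of Rbm3 stood otherwise in the sums, and the difference between Rbm3 and Cirbp was not tested. In fibroblasts its r with the 7 heat genes ran from -0.15 (Hsph1) to 0.21 (Hspa1a) and 0 were called as falling with it, where 0.274% of 12431 genes were, and in immune cells it ran from 0.18 (Hspb1) to 0.47 (Dnajb1), with 0 called, where 0% of 10140 genes were. In single clusters r of Rbm3 with the 7 heat genes ran from -0.29 to 0.17 in cluster 4, from -0.38 (Hsph1) to -0.01 (Hspa1b) in cluster 9 and from -0.34 to 0.03 in cluster 3. With zeitgeber time means subtracted it was negative for 7 of 7 in cluster 3 (-0.65 to -0.10) and for 1 of 7 in cluster 9. Rbm3 and Cirbp themselves had r = 0.23 in fibroblasts (adjusted p = 0.650) and 0.36 in immune cells (adjusted p = 0.623).

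**Figure D5:**
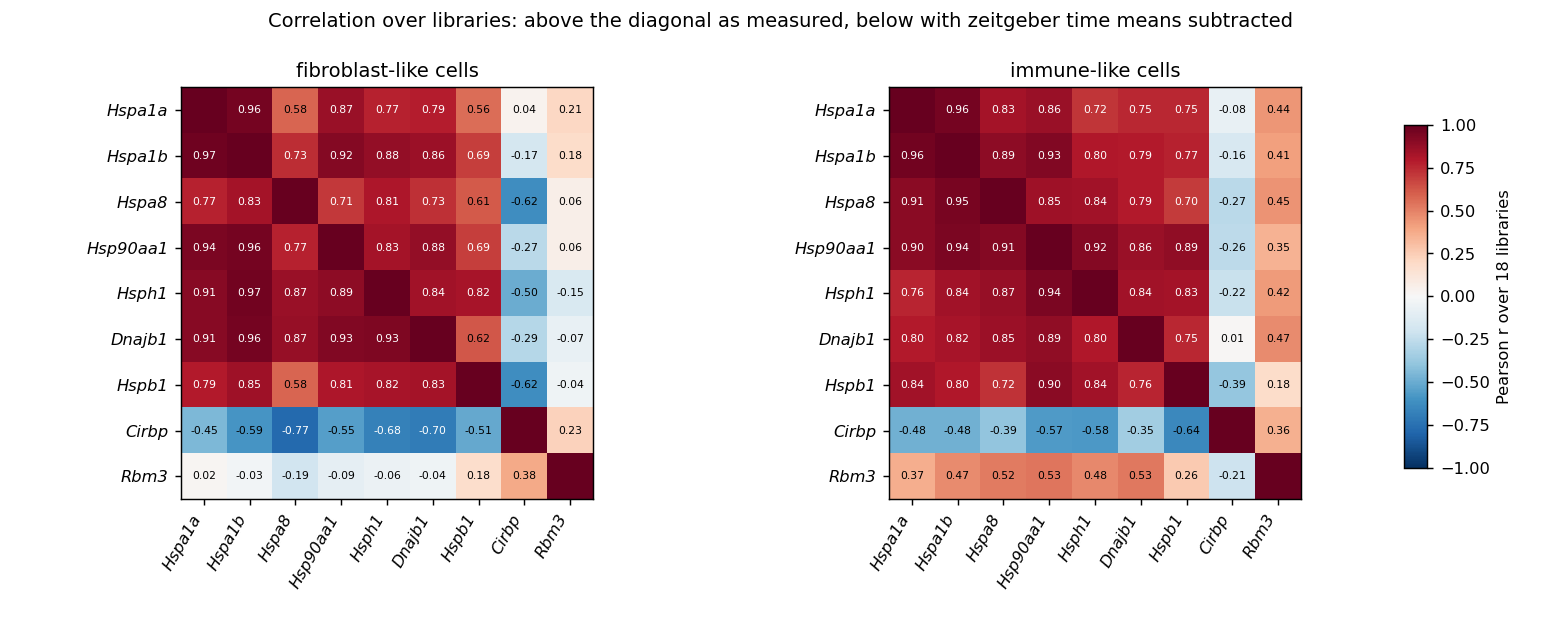
Pearson r over 18 libraries between the 9 genes in fibroblast-like (left) and immune-like cells (right), above the diagonal as measured and below it with zeitgeber time means subtracted (red positive, blue negative). The heat genes form a red block, the Cirbp row is blue below the diagonal for all 7 heat genes, and the Rbm3 row is near white in fibroblasts and pale red in immune cells.

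Of 31 tested other chaperones and co-chaperones, most of them cytosolic, 7 were called in the fibroblast sums, where 13.2% of all genes were, and 24 were not. The 7 called peaked by night, as did 47.5% of the 1642 genes called. The 4 with the smallest adjusted p were Stip1, which links Hsp70 to Hsp90 (0.00143, peak 16 h), Cacybp (0.00284, 15.5 h), the Hsp90 co-chaperone Fkbp4 (0.00284, 16.5 h) and Dnaja2, an Hsp40 (0.00443, 12.7 h), by edgeR. Their log2 amplitudes were 0.54, 0.38, 0.52 and 0.24, and the median of the list was 0.16 against 0.13 over all tested genes. In cluster 4, 5 of 30 were called and in cluster 9, 6 of 29, all by night, with Stip1, Cacybp and Fkbp4 among them in both. The shares over all genes were 7.27% and 6.77%, with 44.7% and 49.9% of called genes peaking by night.

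The other lists can be read against the same 13.2% of all genes called. In the fibroblast sums 0 of 3 tested heat shock factor genes were called, 1 of 6 mitochondrial chaperones (Hspa9, peak 12.7 h) and 0 of 8 subunits of the CCT chaperonin. Of 14 chaperones of the endoplasmic reticulum, 2 were called, Calr (23.1 h) and Sdf2l1 (20.5 h). Of 15 temperature-linked RNA processing genes 5 were called, 4 peaking by day and 1 by night, among them Hnrnpa1 (11.1 h), Clk1 (3.54 h), a kinase of splicing factors, and Tardbp (16.3 h). Among the 12 immediate early genes Ier3 was called, with a peak at 9.52 h. In immune cells 0 genes of any of the 7 lists were called by edgeR, with 0 to 5 per list at an unadjusted p under 0.05.

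Among the genes most like Cirbp over the 18 fibroblast sums, by Pearson r among all tested genes, were 2210039B01Rik (0.90), Zc3h6 (0.88), Omd (0.84) and Gm31378 (0.83). With zeitgeber time means subtracted their r values with Cirbp were 0.77, 0.69, 0.52 and 0.39. Those most like Hspa8 were Dnaja4, an Hsp40 (0.88), Bok (0.87), Srp68 (0.86), Fem1b (0.85) and Xpo1 (0.81), the nuclear exporter. With the means subtracted, r between Hspa8 and these 5 was 0.84 or higher.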

How the data were processed

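Count matrices of 18 dermal 10x Chromium 3′ v3 libraries were analysed. Per the labels and the submitters' processing notes, the authors made these whole-number UMI counts with Cell Ranger 3.1.0 on mm10, and the deposited counts were not normalised. The study's cell filter was applied (850 to 7800 genes, mitochondrial share below 13%), and the cells were clustered (scanpy 1.11.5, 2000 variable genes, 30 components, Leiden resolution 0.8) without the 9 members and 12 clock genes. Clusters were named from marker lists, no doublets were removed in the main analysis, and UMIs were summed per library and class (16877 cells, 4850221 to 40827442 deposited UMIs per library). Precision is limited by 3 libraries per time.

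Rhythm, level and interaction were tested with edgeR 4.0.16 (quasi-likelihood, TMM, filterByExpr, Benjamini-Hochberg over all tested genes). Peaks and amplitudes came from a 24 h cosine on UMIs per 10000, with jackknife standard errors over libraries and 95% intervals. Correlations used log2(UMIs per 10000 + 0.01), 100000 permutations over libraries, or all 46656 orders within zeitgeber times. Adjusted p-values of rhythm, level and interaction are edgeR's, those of correlations are from permutation. Alternatives were DESeq2 1.42.0, JTK_Cycle written anew, time as a factor, other normalisations, no low-count filter, a replicate block, other cell classes, doublet removal, all barcodes, and each library left out. Single clusters were added after the sums had been seen. Fits were tested on simulated data.

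Replicate numbers mark successive collection days in the titles, so same-numbered libraries share a day. The check gave a mean correlation of their deviations of 0.0641 in fibroblasts, against -0.0311 for other pairs. All 9 members are named in every comparison, of each other list up to 4 genes with the smallest adjusted p in fibroblasts, and for Cirbp and Hspa8 the 5 genes most like them. Some genes that this rule names are not reported here. Members, lists and tests were chosen with earlier results of these data known. Promoters came from RefSeq (GRCm38.p6), coordinates from GENCODE.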

Additional observations from a re-analysis of the deposited data

How the results depend on the processing

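The count of members called as rhythmic depended on settings in a few cases. In fibroblasts, where 1 was called, time as a factor called 2, cells of cluster 4 only 3 and cells of cluster 9 only 5, and leaving out 1 library gave 1 to 3 (2 without ZT10 replicate 3 and 3 without ZT18 replicate 1). In immune cells, where 0 were called, DESeq2 and cells of cluster 3 only called 1 each, in each case Rbm3. Leaving out 1 library there gave 0 to 1 (1 without ZT2 replicate 3). The sum over all deposited barcodes, which mixes the cell types, also called 1, Rbm3. Fibroblast-like cells held 271967261 of its 361594855 UMIs, so that call does not bear on immune cells. JTK_Cycle also picked Rbm3 alone in immune cells, but its threshold of 0.05 was not adjusted over genes. At that threshold 338 of 19685 genes passed, so its pick is not comparable with the adjusted calls. In cluster 3, where 1 was called, time as a factor and library totals called 0 each, and leaving out 1 library gave 0 to 1. Leaving out 1 library gave 3 to 4 calls in cluster 4 and 3 to 6 in cluster 9 (3 without ZT6 replicate 1). The median gap ran from 3.94 to 9.37 h in fibroblasts and from 2.00 to 5.05 h in immune cells with 1 library left out, lowest without ZT18 replicate 2 and highest without ZT18 replicate 1 in both. The replicate block, which pairs libraries by collection day, gave 1 call in fibroblasts, 0 in immune cells and 4 in cluster 9 and changed no call other than that of Cirbp in cluster 9. The causes were not tested. Under the alternatives run, no result reversed, the difference between cell types stayed at 7 calls with each library left out, and the interaction stayed at 0 calls. The heat gene correlations with Cirbp and Rbm3 in the class sums also stayed at 0 calls, while in cluster 9 Hspa8 was called with Cirbp without ZT10 replicate 2. Cirbp was the exception among levels, being called lower in immune cells (log2 difference -0.21) with no low-count filter. Counts fell to 25 UMIs for Cirbp and 10 for Hspb1 in an immune sum and to 15 and 9 in a cluster sum, which limits their precision. The same holds for Hsph1, with as few as 11 UMIs in cluster 4 and 15 in cluster 9, and for Dnajb1, with 17 and 15.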

Other observations

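Some chaperones of the endoplasmic reticulum, which fold secreted proteins such as collagen, were called as rhythmic in the single fibroblast clusters, and the genes named here were chosen after their values were seen. In cluster 4, where 7.27% of all genes were called, 5 of 14 were called by edgeR: Calr (adjusted p = 0.00194, peak 0.18 h), Pdia6 (adjusted p = 0.0193, 22.4 h), Hsp90b1 (adjusted p = 0.0283, 22.9 h), Sdf2l1 (adjusted p = 0.0311, 21.1 h) and Manf (adjusted p = 0.0454, 18.4 h). In cluster 9, where 6.77% of all genes were called, 4 of 14 were, Sdf2l1 (19.9 h), Dnajb11 (20.7 h), Calr (22.9 h) and Manf (17.7 h). Mitochondrial chaperones were called at 15.9 h in cluster 4 (Hspd1) and at 17.3 h and 15.2 h in cluster 9 (Hspd1 and Hspe1). The median log2 amplitude of the endoplasmic reticulum list was 0.31 in each cluster, against 0.14 and 0.13 over all tested genes in clusters 4 and 9. The difference in timing from Hspa8 in the same clusters was not tested.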
